A study of Mus musculus with 4 samples.

Results

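The interleukin-6 family, its JAK kinases and STAT3 were followed in mouse primary myotubes through 10 genes, chosen by name from the 53647 genes counted in each library. They are the ligands Il6 and Lif, the receptor genes Il6ra, Il6st, Osmr and Lifr, the kinases Jak1 and Jak2, the transcription factor Stat3 and the inhibitor Socs3. Wild-type (WT) myoblasts came from limb muscles of pups aged 2 to 3 days, and were grown with basic fibroblast growth factor and then differentiated in horse serum. The EDA-A2 group, with 2 libraries, was given 250 ng/mL recombinant EDA-A2, the ligand of the TNF receptor family member EDA2R, for 24 h, and the control group, with 2 libraries, was labelled only as control. Cells of both groups were harvested 72 h after differentiation began, and no source used here says whether the 2 libraries of a group came from separate cultures, so p-values measure only the spread between these libraries. The question behind the comparison is how gene expression in myotubes responds to activation of EDA2R.

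Cytokines of the IL-6 family signal through gp130, the shared receptor chain encoded by Il6st, which pairs with a chain that sets the specificity. Receptor-bound JAK kinases then phosphorylate STAT3, which enters the nucleus and switches on genes that include Socs3, an inhibitor that acts back on the receptor complex. In skeletal muscle, IL-6 is released by contracting fibres, LIF acts on myoblasts, and lasting activation of STAT3 has been linked to muscle wasting.

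Counts on genes lay between 29444155 and 29746863 per library, and all 10 genes were among the 15173 that passed the filter on low counts. Normalized counts below are counts scaled to a common library size with edgeR's TMM factors, which lay between 0.9718 and 1.026. At this depth the limit of 3 counts that a count of 0 allows was at most 0.102 CPM (counts scaled to library size), which covers counting error only. The receptor gene and 2 genes of the pathway that EDA2R is known to activate rose: Nfkb2, a subunit of noncanonical NFκB, had a log2 fold change of 1.89, Relb of 0.99 and Eda2r of 0.35 (edgeR adjusted p = 9.46e-10, 3.1e-05 and 0.0178). These 3 genes were chosen with earlier results of these data known, and 2.45% of all genes tested were called higher. With no filter on low counts Nfkb2 and Relb were still called, and Eda2r was not (edgeR adjusted p = 0.261). Without EDA-A2 replicate 2 the log2 fold change of Eda2r was 0.25. Of 5 myotube markers, Myh3 and Acta1 fell, by 0.57 and 0.52 on the log2 scale, and the sum of the list was 467107 to 481000 counts in control and 348962 to 357527 in EDA-A2 libraries. The cultures also held dividing cells: 3 markers, among them Mki67, summed to 17014 to 20584 counts in control and 19570 to 19983 in EDA-A2 libraries. Another 3 markers, of myoblasts, among them Pax7, summed to 4229 to 4796 counts in control and 4275 to 4482 in EDA-A2 libraries. None of the myoblast markers was called by edgeR, and Pax7 had a log2 fold change of -0.17. Of 6 macrophage markers, Ptprc, Adgre1 and Lyz2 had at most 3 counts in every library, while the list summed to 71 to 86 counts in control and 101 to 121 in EDA-A2 libraries, mostly through Cd68 and Cd14. The 4 T cell markers, of which Cd2 had no count, summed to 8 to 12 counts in control and 2 to 5 in EDA-A2 libraries. For the 4 endothelial markers the sums were 31 to 36 and 30 to 37. The 5 fibroblast markers, of which Lum had none, summed to 48137 to 51113 and 48265 to 48833, mostly through Col3a1 (log2 fold change -0.04). Of the others, Col1a1 had a log2 fold change of -0.46, Pdgfra of 0.16 and Dcn of 0.48, and none was called by edgeR. The part of these cells in the results below was not tested.

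At an edgeR adjusted p under 0.05, 1 of the 10 genes was called higher after EDA-A2 and none lower, against 2.45% and 2.13% of all genes tested. The gene called, Jak2, was 32.6% higher than in control, and the call was lost with no filter on low counts. The mRNA of the signal transducer Stat3 differed from control by -3.76%, and that of its feedback inhibitor Socs3 by -0.283%, each by less than its error. Osmr, Lif and Il6ra lay higher, and Il6st and Stat3 lower, in both EDA-A2 libraries than in both controls, without passing the test. Of all genes tested, 22.8% lay higher and 22.2% lower in this way. Outside the 10 genes, Tyk2 and Stat5a rose further than Jak2.

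Differences were tested with edgeR's quasi-likelihood test and adjusted by the Benjamini-Hochberg method over all genes tested, and each log2 fold change is EDA-A2 over control with its standard error (SE) or its 95% interval from that fit. Over all genes tested, 2.45% were called higher and 2.13% lower after EDA-A2, against 1 and 0 of the 10 genes. At an unadjusted edgeR p under 0.05, 3 of the 10 genes were higher and 1 lower, against 7.61% and 8.03% of all genes tested. The DESeq2 Wald test called 1 of them higher and 1 lower, against 2.15% and 1.98% of the 13702 genes to which it gave an adjusted p. Scaling to total counts in place of TMM moved the calls over all genes from 371 higher and 323 lower to 485 and 194, and the median log2 fold change of all genes tested to 0.05. The normalized counts of both EDA-A2 libraries lay above both controls for 4 of the 10 genes, Lif, Il6ra, Osmr and Jak2, and below them for 2, Il6st and Stat3. Over all genes tested these shares were 22.8% and 22.2%. The median log2 fold change of the 10 genes was 0.10, against -0.002 over all genes tested. In bulk RNA, fewer cells of a type and less RNA per cell cannot be told apart.

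**Figure D1:**
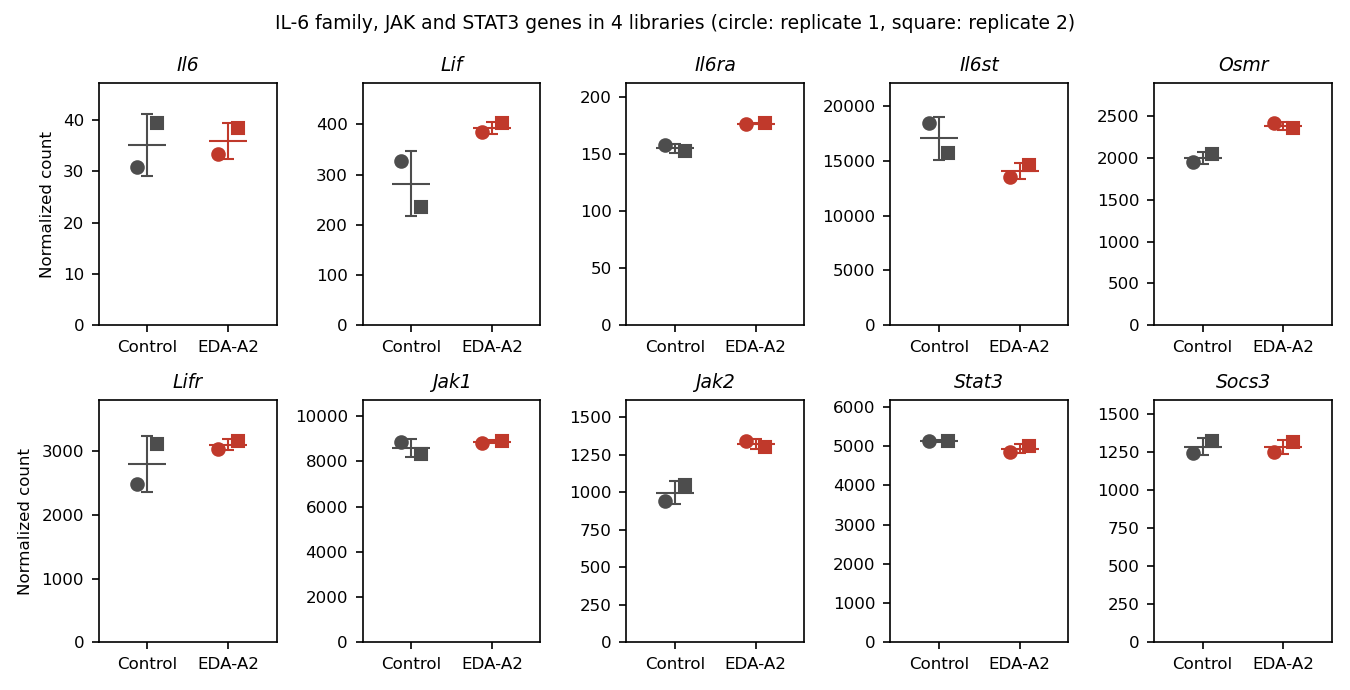
Normalized counts (vertical axes, linear from 0) of the 10 genes in the 2 control libraries (grey) and the 2 EDA-A2 libraries (red), with the mean as a horizontal line and the SD as a bar. For Jak2 the EDA-A2 libraries, at 1343 and 1298, lie above the controls at 941 and 1051, and for Socs3 the conditions overlap.

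Per length of exon the 10 genes spanned a wide range. In RPKM, reads scaled to exon length and library size and averaged over the 4 libraries, Il6st was highest with 33.8, followed by Jak1 with 27.2, Stat3 with 16.8 and Socs3 with 12.2. Lifr (7.21), Jak2 (6.18) and Osmr (5.97) came next, and their ranges over the libraries overlapped, so that their order is not set. Lif had 2.48 RPKM, and the lowest levels were those of Il6ra (0.632) and Il6 (0.493), the specific receptor chain and its ligand. Except among Lifr, Jak2 and Osmr, the range of each gene over the 4 libraries stood clear of the next one down. Exon lengths came from GENCODE M39, and the release behind the deposited counts is not given in the sources used here.

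Of the ligands, Il6 (ENSMUSG00000025746, chromosome 5 from 30218112 to 30224979 of GRCm39) encodes interleukin-6. Its counts before scaling were 30 and 39 without EDA-A2 and 34 and 39 with it. The conditions overlapped, and the log2 fold change was 0.03 with a 95% interval from -0.61 to 0.67 (edgeR adjusted p = 0.98), so that a change within that interval was not detectable at this depth. Its sign turned when control replicate 1 was left out, to -0.13, and when EDA-A2 replicate 2 was, to -0.08. The 250 bases before the annotated start of Il6, at chr5:30217862-30218111 on the plus strand, hold a match to the NFκB motif, shown in capitals because NFκB genes rose in these libraries and Il6 is a known NFκB target.

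Il6: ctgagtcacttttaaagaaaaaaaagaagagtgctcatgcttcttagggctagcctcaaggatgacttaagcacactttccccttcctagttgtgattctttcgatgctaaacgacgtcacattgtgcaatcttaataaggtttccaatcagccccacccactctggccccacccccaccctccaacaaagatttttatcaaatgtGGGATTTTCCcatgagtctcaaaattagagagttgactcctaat

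The match, GGGATTTTCC, begins at position -44 counted from the start of the transcript. The NFκB motif of 10 bases was searched on both strands in the 250 bases before the canonical start of each protein-coding gene tested, and 4.39% of 13065 such windows held it. Of the 10 genes, Il6 alone had a match, and a match is a description of letters and not a site in use.

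Lif (ENSMUSG00000034394, chromosome 11 from 4207557 to 4222514) encodes leukaemia inhibitory factor, which signals through LIFR and gp130. It had 328 and 236 normalized counts in control replicates 1 and 2, and 385 and 402 in EDA-A2 replicates 1 and 2. Both EDA-A2 libraries lay above both controls, but the controls differed from each other by more than replicate 1 of them did from the EDA-A2 libraries. This is a log2 fold change of 0.48 (SE 0.14, edgeR adjusted p = 0.0737), and leaving out single libraries moved it from 0.27 without control replicate 2 to 0.74 without control replicate 1. The gene next to it, Osm, which encodes oncostatin M and lies 16.5 kb away on the same strand, had at most 1 count in every library.

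Among the receptors, Il6st (ENSMUSG00000021756, chromosome 13 from 112600604 to 112646620) encodes gp130, the chain that nearly all ligands of the family share. It had 18407.5 and 15666 normalized counts in the controls, against 13517 and 14582 after EDA-A2. Its log2 fold change was -0.28 (SE 0.08), a difference of -17.5%, which missed the threshold with edgeR (adjusted p = 0.0711) and passed it with the DESeq2 Wald test (adjusted p = 0.0477). Without control replicate 1 the log2 fold change was -0.16, and without control replicate 2 it was -0.39. The lower level in both EDA-A2 libraries thus rested in size on which control was used.

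Osmr (ENSMUSG00000022146, chromosome 15 from 6843053 to 6904450), the receptor chain for oncostatin M, was higher in both EDA-A2 libraries. It had 1953 and 2048 normalized counts in the controls and 2416 and 2355 after EDA-A2, with no overlap and a gap wider than the spread within either condition. With a log2 fold change of 0.25 (SE 0.07, edgeR adjusted p = 0.0555), Osmr lay just outside the threshold. Scaling to total counts, which raised the median of all genes to 0.05, put Osmr at 0.31 and inside the threshold (edgeR adjusted p = 0.0277). A replicate block also did (edgeR adjusted p = 0.02). It stayed outside with the DESeq2 Wald test (adjusted p = 0.105) and with no filter on low counts (edgeR adjusted p = 0.256). Without single libraries its log2 fold change lay between 0.22 and 0.29.

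Lifr (ENSMUSG00000054263), the LIF receptor chain, lies 216 kb from Osmr on the opposite strand of chromosome 15, from 7120095 to 7226970. It had 2482 and 3101 normalized counts in the controls and 3035 and 3161 after EDA-A2, so that the conditions overlapped, with a log2 fold change of 0.15 and an interval from -0.04 to 0.34. Il6ra (ENSMUSG00000027947, chromosome 3 from 89771366 to 89820719), the chain that binds IL-6, had 158 and 152 normalized counts in the controls and 176 and 177 after EDA-A2. The log2 fold change of Il6ra was 0.19 with an interval from -0.13 to 0.51 (edgeR adjusted p = 0.638), wider than the gap between the libraries at this low count.

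The kinase Jak2 (ENSMUSG00000024789, chromosome 19 from 29228677 to 29290505) carried the only call among the 10 genes. It had 941 and 1051 normalized counts in control replicates 1 and 2 and 1343 and 1298 in EDA-A2 replicates 1 and 2, means of 996 ± 77.8 and 1321 ± 31.5 (SD, n = 2 each). The lowest EDA-A2 library stood above the highest control by more than the spread within either condition. Jak2 thus had a log2 fold change of 0.41 (SE 0.08, 95% interval 0.23 to 0.59, edgeR adjusted p = 0.00978). Without single libraries it lay between 0.33 and 0.49, higher in every case, but with 3 libraries the call held only without EDA-A2 replicate 2 (edgeR adjusted p = 0.0496). It was lost without control replicate 1 (adjusted p = 0.288), control replicate 2 (0.191) or EDA-A2 replicate 1 (0.0777), all from edgeR. It was also lost with no filter on low counts (edgeR adjusted p = 0.157). Without either control no gene at all was called, Nfkb2 included, although 2179 and 2448 genes had an unadjusted edgeR p under 0.05. These fits assume that the lone control varies like the EDA-A2 libraries, and every call named here was lost in them. In GENCODE, Jak2 shares 225 bases of exon with Gm59364, a long noncoding RNA on the other strand.

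The 250 bases before the start of Jak2, at chr19:29228427-29228676 on the plus strand of GRCm39, are shown because Jak2 is the gene that rose. The capitals mark a match to the STAT motif TTCNNNGAA.

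Jak2: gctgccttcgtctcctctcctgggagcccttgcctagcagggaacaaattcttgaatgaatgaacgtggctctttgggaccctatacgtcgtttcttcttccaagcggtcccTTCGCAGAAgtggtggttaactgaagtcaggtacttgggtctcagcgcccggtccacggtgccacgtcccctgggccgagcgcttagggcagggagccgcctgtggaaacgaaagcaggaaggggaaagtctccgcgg

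The match begins at position -138 and reads TTCGCAGAA. Over the same 13065 windows, 6.38% held this motif on either strand. Among the 10 genes Socs3 also had one, TTCTTAGAA at position -223 from its canonical start on chromosome 11, and the other 8 had none in these windows. The NFκB and STAT matches did not overlap in any of the 10 genes, since no window held both. The windows of Tyk2 and Stat5a, which rose as well, held neither motif. That of Stat5b, which was not called, held an NFκB match, GGGGTGTCCC at position -157.

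Jak1 (ENSMUSG00000028530, chromosome 4 from 101008838 to 101122487), the kinase on which gp130 signalling chiefly depends, did not follow Jak2. It had 8864 and 8311 normalized counts in the controls and 8829 and 8923 after EDA-A2, and the EDA-A2 libraries fell on both sides of control replicate 1. The log2 fold change was 0.05 with a 95% interval from -0.10 to 0.19, which lies below the interval of Jak2. The difference between the kinases was not itself tested. Jak1 shares 1950 bases of exon with Raver2 on the other strand, which had at most 14 counts in a library.

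By likeness of pattern, the 3 genes tested whose centred log2 CPM lay nearest to Jak2 over the 4 libraries were Mylk2, the skeletal muscle myosin light chain kinase, Slc7a4 and Zfp677. Their root mean square distances from Jak2 were 0.0104, 0.0138 and 0.0178, and their log2 fold changes were 0.39, 0.41 and 0.38. None of them was called (edgeR adjusted p = 0.109, 0.407 and 0.148), and with 4 libraries many genes resemble one another in this way.

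Stat3 (ENSMUSG00000004040, chromosome 11 from 100775924 to 100830450) had 5121 and 5139.8 normalized counts in the controls and 4859.8 and 5015 after EDA-A2. The EDA-A2 libraries lay just below the controls. A log2 fold change of -0.06 was fitted (SE 0.07, edgeR adjusted p = 0.778), with a 95% interval, from -0.19 to 0.08, that holds no rise larger than 0.08 on the log2 scale. These are levels of mRNA: the active form of STAT3 is phosphorylated protein, which RNA sequencing does not measure. Under scaling to total counts the log2 fold change of Stat3 was -0.001.

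Socs3 (ENSMUSG00000053113, chromosome 11 from 117856905 to 117860898), a gene that STAT3 induces, had 1248 and 1326 normalized counts in the controls and 1252 and 1315 after EDA-A2. The conditions overlapped almost fully. Its log2 fold change was -0.004 (SE 0.08, 95% interval -0.17 to 0.16, edgeR adjusted p = 0.989), and its sign turned with the scaling, to 0.05 under total counts.

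**Figure D2:**
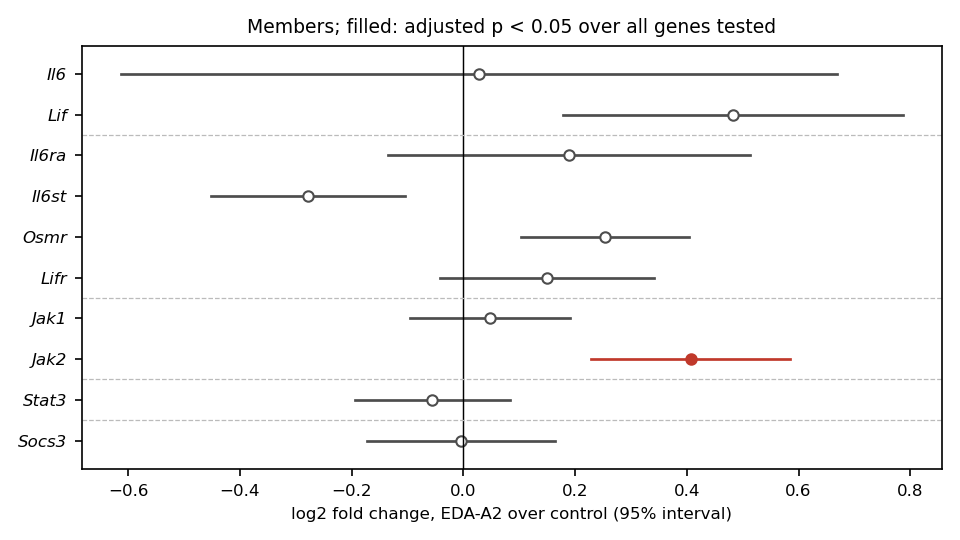
The log2 fold change of each of the 10 genes, EDA-A2 over control (horizontal axis), with its 95% interval from the edgeR fit and dashed lines between ligands, receptors, kinases, Stat3 and Socs3. Jak2, the filled point at 0.41, is the only one with an adjusted p under 0.05, and the widest interval is that of Il6, from -0.61 to 0.67.

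**Figure D3:**
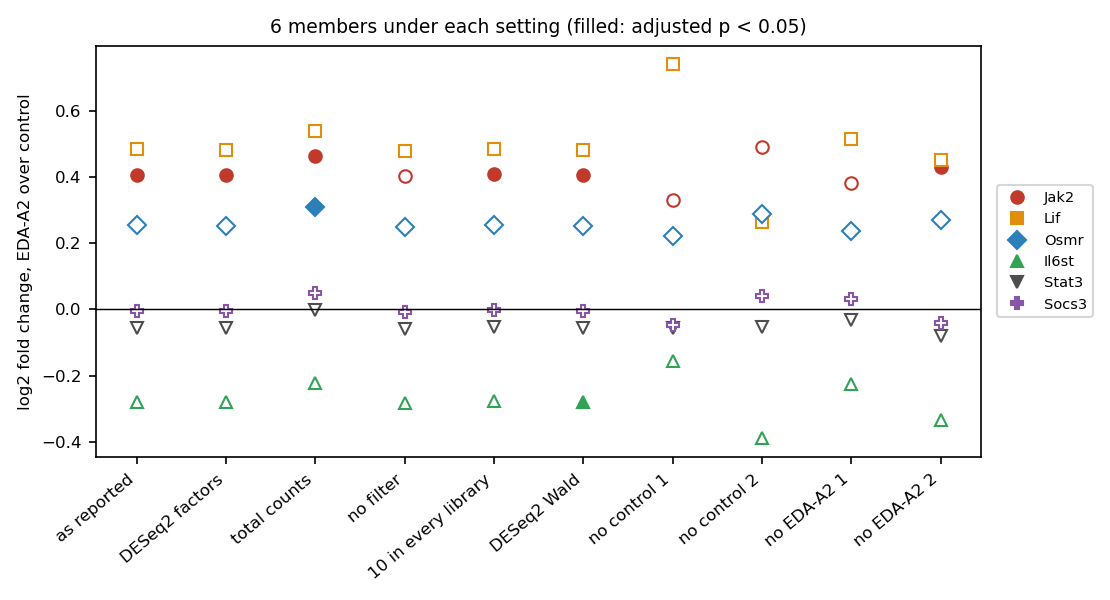
The log2 fold changes of 6 of the genes, EDA-A2 over control (vertical axis), as reported and under other scalings, filters, the DESeq2 test and without each library in turn (horizontal axis), filled where the adjusted p is under 0.05. Jak2 stays between 0.33 and 0.49, and Lif spans 0.27 to 0.74.

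The wider pathway was described with lists of other ligands, receptors, sheddases, kinases, STATs, inhibitors and STAT3 target genes, 61 genes in all, of which 50 were tested. Of these, 3 were called higher and 1 lower, and their median log2 fold change was -0.01. Over all 15173 genes tested, 2.45% were called higher and 2.13% lower, with a median of -0.002. Among 11 genes listed with the other ligands, 5 were tested and none was called by edgeR or DESeq2, nor had any an unadjusted p under 0.05. The smallest p-value was that of Clcf1, cardiotrophin-like cytokine factor 1, with a log2 fold change of -0.26 (edgeR adjusted p = 0.374). The other 6 genes of that list, Osm, Ctf2, Il27, Ebi3, Il31 and Lep, had at most 1 count in any library.

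Of 5 other receptor chains, 3 were tested and none was called by edgeR or by DESeq2. Il11ra1, the chain for interleukin-11, had the lowest p of them, with a log2 fold change of -0.29 (edgeR adjusted p = 0.253) and the only unadjusted p under 0.05, and Cntfr, the chain for ciliary neurotrophic factor, had -0.24. The proteases Adam10 and Adam17, which shed the IL-6 receptor from the cell surface, had log2 fold changes of 0.06 and 0.11, and neither was called by edgeR or DESeq2 or had an unadjusted p under 0.05.

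The kinase Tyk2 (ENSMUSG00000032175, chromosome 9 from 21015363 to 21042689), which binds gp130 and the interferon receptors, rose more than Jak2. It had 687 and 693 normalized counts in the controls and 1095 and 1279 after EDA-A2, well apart. The log2 fold change was 0.78 (SE 0.09, edgeR adjusted p = 0.000121), or 72.0% higher. It lay between 0.67 and 0.89 without single libraries, and with no filter on low counts it missed the threshold (edgeR adjusted p = 0.0559). Jak3, the kinase of lymphoid cytokine receptors, had a log2 fold change of 0.12 with an interval from -0.14 to 0.39.

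Of 6 other STATs, 5 were tested and 1 was called. Stat5a (ENSMUSG00000004043, chromosome 11 from 100750177 to 100776065), a transducer of growth hormone and prolactin signals, had 756 and 778 normalized counts in the controls and 1369 and 1514 after EDA-A2. That is a log2 fold change of 0.91 (SE 0.08, edgeR adjusted p = 1.36e-05), larger than that of any of the 10 genes, and it lay between 0.83 and 0.98 without single libraries. Stat5a and Stat3 run towards each other and share 142 bases of exon at their ends, while Stat5b lies 8.59 kb from Stat5a. Stat5b, named here after its value was seen, had 1995 and 1966 normalized counts in the controls and 1873 and 1968 after EDA-A2, with a log2 fold change of -0.04 and an interval from -0.20 to 0.11. Of the windows of 100 bases in the canonical Stat5a transcript, 6.87% also occur in that of Stat5b, so a single read of that length there fits both genes. The libraries were sequenced in pairs, and how many pairs this affects was not tested. Adjacent on chromosome 11, these 3 STAT genes had intervals of 0.73 to 1.09 for Stat5a, -0.20 to 0.11 for Stat5b and -0.19 to 0.08 for Stat3. The differences between the genes were not tested.

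All 15 other inhibitors, the remaining SOCS genes, the PIAS genes and 4 tyrosine phosphatases, were tested, and none was called by edgeR or DESeq2. Their median log2 fold change was -0.03, against -0.002 over all genes tested, and 4 of the 15 were positive, against 7508 of 15173. Ptpn2, a phosphatase of JAK1 and STAT proteins, had 0.19 (edgeR adjusted p = 0.235) and was the only one with an unadjusted p under 0.05. Cish, a target of STAT5, had -0.42 with an interval from -0.88 to 0.03, at 100 and 146 counts per control library and 85.3 and 98.3 per EDA-A2 library after normalization.

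**Figure D4:**
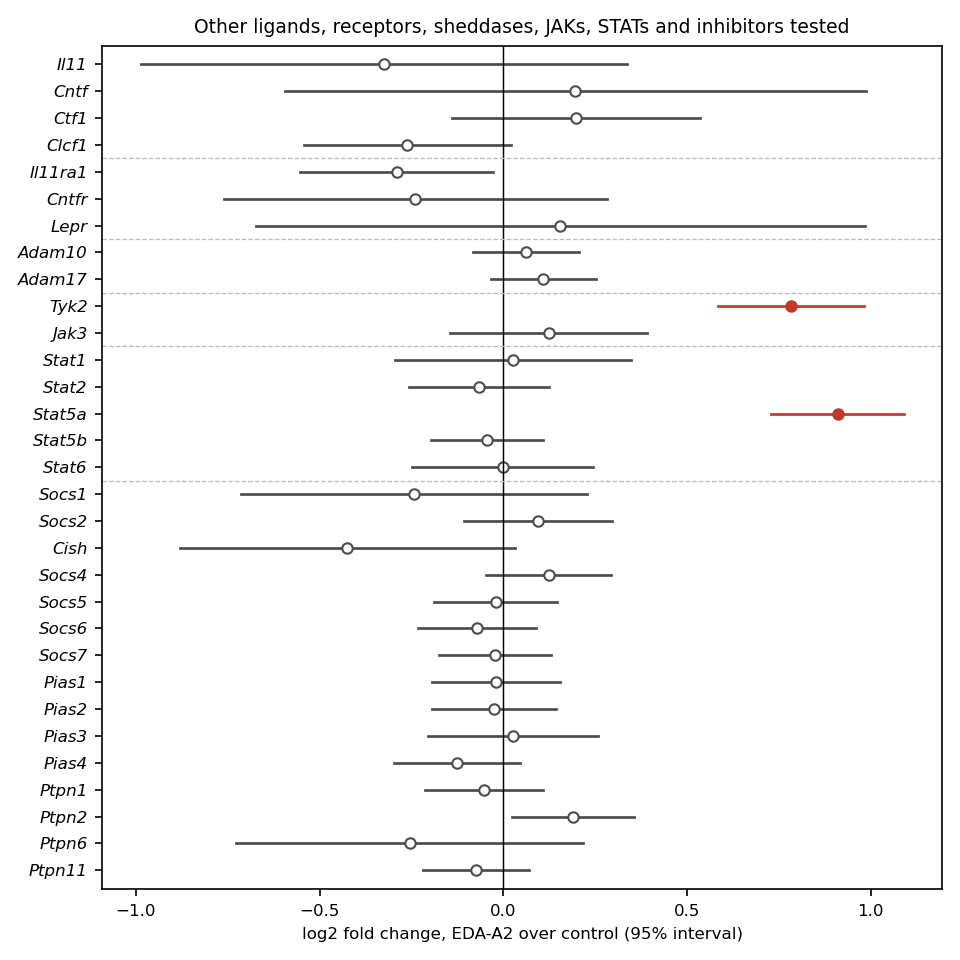
The log2 fold changes, EDA-A2 over control (horizontal axis), of the other ligands (all but 1), receptors, sheddases, JAKs, STATs and inhibitors tested, with 95% intervals from the edgeR fit and dashed lines between the lists. The 2 filled points, Tyk2 at 0.78 and Stat5a at 0.91, are the calls at an adjusted p under 0.05.

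Of 20 genes listed as STAT3 targets, 18 were tested, and 10 of them had a positive log2 fold change. The median of the 18 was 0.03, and 1 was called in each direction. At an unadjusted edgeR p under 0.05, 3 of the 18 were higher and 4 lower, against 7.61% and 8.03% of all genes tested. Over all genes tested, 7508 of 15173 were positive, 2.45% were called higher and 2.13% lower, and the median was -0.002. Junb, which encodes a subunit of the AP-1 transcription factor, had 2674 and 2221 normalized counts in the controls and 4303 and 3941 after EDA-A2, and rose by 0.75 on the log2 scale (SE 0.09, edgeR adjusted p = 9.24e-05). Fos, another subunit of AP-1, had 423 and 374 in the controls and 258 and 204 after EDA-A2, and fell by 0.79 (SE 0.14, edgeR adjusted p = 0.00299). Both respond to many signals besides STAT3. With no filter neither passed (edgeR adjusted p = 0.0676 for Junb and 0.121 for Fos).

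The ubiquitin ligases of muscle wasting, Fbxo32 (Atrogin1) and Trim63 (MuRF1), were both called higher. Fbxo32 had 1659.8 and 1885 normalized counts in the controls and 2812 and 2747 after EDA-A2, and Trim63 had 2014 and 2070.2 against 3449 and 3794. Their log2 fold changes were 0.65 and 0.83 (edgeR adjusted p = 0.000121 and 7.62e-06).

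**Figure D5:**
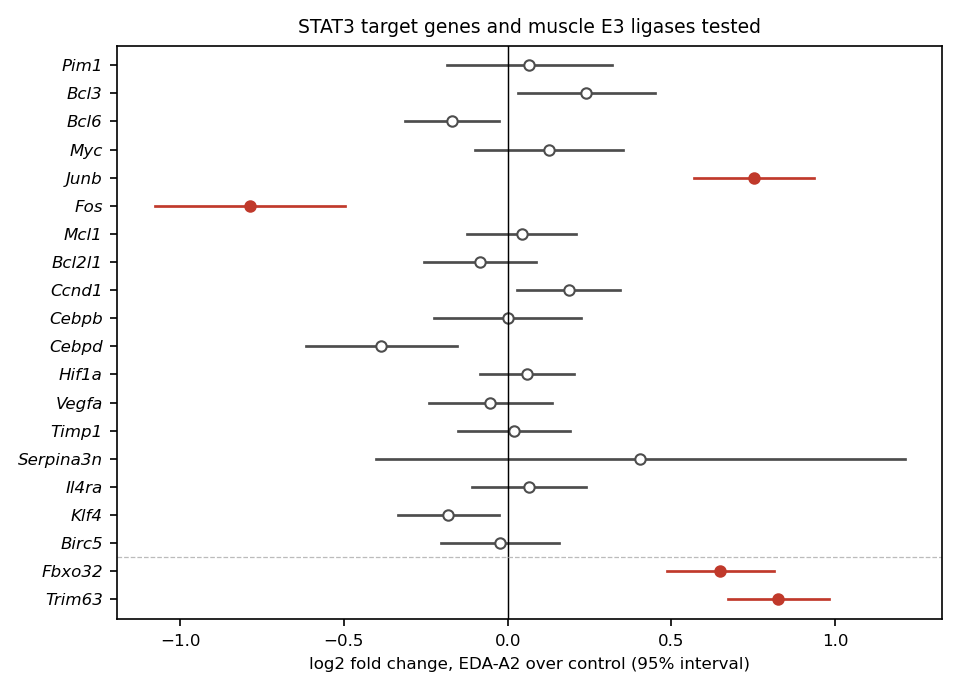
The log2 fold changes, EDA-A2 over control (horizontal axis), of the 18 STAT3 target genes tested and, under the dashed line, of Fbxo32 and Trim63, with 95% intervals from the edgeR fit. Filled points are calls at an adjusted p under 0.05: Junb at 0.75 and Fos at -0.79 lie on opposite sides of 0.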

How the data were processed

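Polyadenylated RNA of 4 libraries was sequenced in pairs from a stranded kit. Per the submitters' processing notes, reads were checked with FastQC 0.11.9 and MultiQC 1.12, trimmed with Trim Galore 0.6.5, mapped to GRCm39 with STAR 2.7.3a and counted with HTSeq 0.11.1. For each Ensembl gene the authors deposited raw counts, neither filtered nor pooled. Their annotation release and strand option are not given in the sources used here, so overlapping genes on opposite strands are uncertain. HTSeq's summary lines (no feature 6.68% to 7.4% of pairs, ambiguous 0.946% to 0.986%, not unique 4.56% to 4.76%) were left out. Symbols came from GENCODE M39, which matched 52610 of 53647 identifiers.

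Counts were fitted in R 4.3.3 with edgeR 4.0.16 (TMM, filterByExpr at its minimum count, 10, and minimum total, 15, then glmQLFit, glmQLFTest, condition only), with Benjamini-Hochberg adjustment over 15173 genes and a threshold of 0.05. The median standard error was 0.10 on the log2 scale. Alternatives were DESeq2 1.42.0 (Wald test, or its size factors), total counts, other filters (none, or 10 counts in every library), a replicate block and leaving out each library. Libraries of 1 condition differed beyond sampling noise (chi-square per gene of 9.33 and 4.45), so all were kept as separate samples. The fits were tested on simulated data, in which edgeR called 176 of 200 changed genes and 2 unchanged genes. Every simulated gene had the same dispersion, 0.00384, in both conditions. The simulation therefore cannot show how the calls fare when the controls vary more than the EDA-A2 libraries, as here. All 10 genes were named, and of each other list its called genes, or the 2 with the smallest p. One ligand that this rule names is not reported here. The genes and lists were chosen with earlier results of these data known.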

Additional observations from a re-analysis of the deposited data

How the results depend on the processing

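The directions of Jak2, Lif, Osmr, Il6st and Stat3 held under every scaling, filter, test and left-out library tried, while Socs3 turned to 0.05 under total counts. Without single libraries Il6 lay between -0.13 and 0.21 and Socs3 between -0.046 and 0.041 on the log2 scale. The number of the 10 genes called higher was 2 under total counts, 0 with no filter and 0 to 1 without single libraries, and the number called lower was 1 with DESeq2 and 0 without any single library. With no filter, 25545 genes were tested, 64 were called higher and 22 lower, and 5 genes of the pathway lists, the wasting ligases and the EDA-A2 response genes were called against 9. Total counts gave 485 genes higher and 194 lower in all. Without single libraries the calls over all genes were 0 to 238 higher and 0 to 170 lower, and those in the lists 0 to 9, with 0 whenever a control was missing. The cause of these differences in calls was not tested.

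The replicate numbers are not known to pair the libraries: deviations from the condition means of the same-numbered libraries correlated at 0.0598 over 15173 genes, from 2 pairs. A replicate block gave 3 of the 10 genes higher (Jak2, Osmr and Lif), and 1 lower (Il6st), while the calls over all genes also rose, from 371 to 537 higher and from 323 to 529 lower. Il6, at 30 to 39 counts, is the gene that depth limits most.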
